A study of Ginkgo biloba with 15 samples.

Results

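The deposited table of the Ginkgo biloba embryo transcriptome holds 43690 gene models, of which 41840 carry an annotation identifier (Gb_) and 1850 were added by the authors under identifiers of the form Novel00888. Added models were kept where the interval from listed start to listed end overlapped no annotated interval on the same sequence, on either strand. This left 1849 added models, all but 1. Ginkgo biloba is a gymnosperm tree, and its embryos were taken from healthy trees under natural conditions at Yangzhou, in September and November of 2015 and in February of 2016. Each month is represented by 2 mRNA libraries from total RNA, with no treatment and no genotype given. The labels do not tell whether the libraries of a month stem from different trees or seeds, so p-values describe the spread among these libraries alone, part of which may be technical. Depth was 14508997 to 19641543 reads per library, and a read on a model of 1000 bases was worth 0.0509 to 0.0689 FPKM (fragments on a model, scaled by its length and by library depth).

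Models outside an annotation are usually built from sequencing reads that align where no gene is listed. Such transcribed regions can be protein-coding genes that the annotation missed, long noncoding RNAs, transcripts of repeats, or pieces of a neighbouring gene. The Ginkgo genome is large and rich in repeats, with long introns, so that genes lie far apart. The Ginkgo embryo is small when the seed is shed and keeps growing inside it afterwards. The deposited table names no product for any model, so neither the function of the added models nor markers of the labelled tissue could be examined. The sources used here do not say how the added models were made. If they were built from these same libraries, a model had to be expressed in them to be listed, and its detection is then no independent result.

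The single added model outside the rule, Novel01391, spans 367547 to 568068 of scaffold 57 (minus strand) and contains the whole of Gb_30860 (399859 to 406287) on the same strand, over 6429 bases. Just inside the rule lie 3 models a few bases from an annotated gene. Novel00811 on scaffold 259 (1690086 to 1691738, minus strand) begins with 1 base between it and the end of Gb_17024. A model on the plus strand of scaffold 4660 (1467307 to 1467709) lies 2 bases past the end of Gb_26956, and one on the plus strand of scaffold 13831 (310851 to 374733) lies 7 bases before the start of Gb_06520. All 3 are on the strand opposite to their neighbour. Counting overlap on the same strand only gave the same 1849 models.

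The added models had a somewhat higher median listed length than annotated genes and a larger median span. Their median listed length was 1045 bases (quartiles 698 and 1665, range 193 to 11937), against 897 for annotated genes (quartiles 516 and 1572). Short models were fewer, with 210 of 1849 (11.4%) under 500 bases against 23.5% of annotated genes. The listed length was a multiple of 3 for 32.1% of added models and for 85.8% of annotated genes. Most annotated lengths are therefore whole numbers of codons, and the 2 kinds of length may not cover the same parts of a transcript.

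The span, from first to last base, had a median of 2478 bases for added models and 1768 for annotated genes. The upper quartile was 16952 bases against 4383. Spans of at least 10000 bases were listed for 525 added models (28.4%, against 19% of annotated genes), and spans of at least 100000 for 144 (7.79%, against 9.1%). Length equalled span, as in a model with 1 unbroken exon, for 280 added models (15.1%) and for 26% of annotated genes. The widest added model covers 526735 bases on the plus strand of scaffold 8804 (288761 to 815495) with a listed length of 1197 bases. Its level was 7.23 to 13.8 FPKM in the 6 libraries. The next, on the plus strand of scaffold 1429 (1323991 to 1746284), covers 422294 bases with a length of 2561 and stood at 16.9 to 26.1 FPKM. The third, on the plus strand of scaffold 1733 (6835963 to 7208888), covers 372926 bases and fell step by step. Its values were 22.6 and 19.3 FPKM in September, 11.7 and 10.6 in November, and 6.38 and 6.01 in February. Its log2 fold change on the log2(FPKM + 1) scale was −0.85 to November (SE 0.19, limma adjusted p = 0.018) and −0.75 from there to February (SE 0.19, limma adjusted p = 0.02). The longest listed lengths belonged to low models. The 11937-base model on the minus strand of scaffold 601 (2133311 to 2145815) stood at 0.227 to 0.691 FPKM and was not tested. The 9102-base model on the minus strand of scaffold 4912 (1188888 to 1202107) stood at 0.448 to 3.84 FPKM, and the 8913-base model on the minus strand of scaffold 716 (1148149 to 1157061), whose length equals its span, at 0.614 to 2.16 FPKM.

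**Figure D1:**
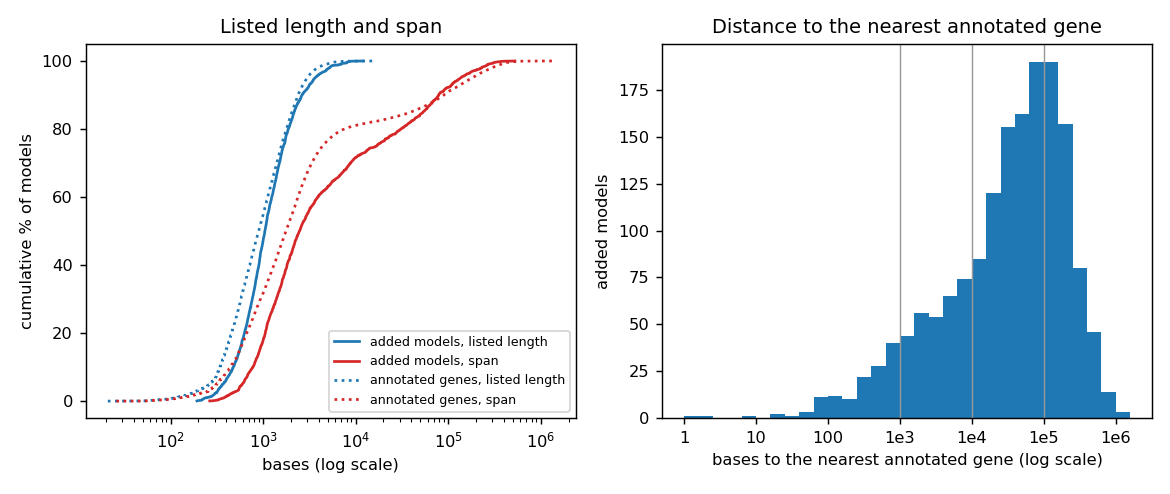
Left, cumulative percentage of models against listed length (blue) and span (red) in bases on a log axis, for the 1849 added models (solid) and the 41840 annotated genes (dotted). Right, number of added models by distance in bases to the nearest annotated gene on a log axis, for the 1627 with one on the same sequence, with lines at 1000, 10000 and 100000 bases. The lengths have medians of 1045 and 897 bases, with fewer short models among the added ones, the spans of the added models are shifted to larger values, and most distances lie above 10000 bases.

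Most added models lay far from any annotated gene. An annotated gene was listed on the same sequence for 1627 of them, and the median number of bases between the pair was 42903 (quartiles 8887 and 116386). Between an annotated gene and its nearest annotated neighbour, where the pair did not overlap, the median was 63544 bases. Fewer than 1000 bases separated 132 added models (7.14%) from an annotated gene, 1000 to 10000 bases separated 293 (15.8%), 10000 to 100000 bases 712 (38.5%) and over 100000 bases 490 (26.5%). The largest distance was 1337825 bases, for a model of 5095 bases on the plus strand of scaffold 1496 (89014 to 94239). The remaining 222 models (12%) lay on 209 sequences that carry no annotated gene at all.

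Strand and side were mixed. Of the 132 models within 1000 bases, 78 (59.1%) were on the strand of the neighbour, 37 of them past its end and 41 before its start. Of the 490 beyond 100000 bases, 265 (54.1%) were on the same strand. Of all added models 940 were on the plus strand and 909 on the minus strand. They were scattered over 1453 sequences, 1156 of which carry 1 added model, and no sequence carries more than 9.

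Sequences whose names begin with C in place of scaffold held a larger share of added models than of annotated genes. These sequences carry 174 models, of which 76 are added (4.11% of all added models) and 98 annotated (0.234% of annotated genes). None of the 76 shares its sequence with an annotated gene. In 33 of the 76 the model starts within 10 bases of the first base of the sequence, against 2 of the 98 annotated genes there, so that the listed interval may stop at the edge of the sequence. Of the 76, 72 reached 1 FPKM in at least 2 libraries, and their median was 3.35 to 6.66 FPKM in the 6 libraries.

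Overlap among the added models themselves went with values of 0. Another of the 1849 overlapped 197 of them on the opposite strand, and a further 14 overlapped another only on the same strand. A total of 71 added models were listed at 0 FPKM in all 6 libraries. All 71 were among the 197 with an overlap on the opposite strand (36%), and none was among the 1638 that overlap no other of the 1849. Overlap with the added model outside the rule was not counted here. The share at 0 in every library was 42 of 67 where the partner covered the whole span and 29 of 130 where it covered part. On the minus strand and the plus strand of scaffold 10487 (157772 to 159451), for example, Novel00118 and Novel00117 list the same start and end and both are at 0 throughout. Among annotated genes 39.6% of those overlapping another annotated gene and 27.1% of the others were at 0 in every library. With counting that does not use strand, or that leaves out reads falling on several models, reads of such pairs cannot be assigned. Whether counting used strand is not stated in those sources, and its part in these zeros was not tested.

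Added models were detected more often than annotated genes and, where detected, at lower levels. At least 1 FPKM in at least 1 library was reached by 1617 added models (87.5%) and by 53.6% of annotated genes. All 6 libraries reached it for 774 (41.9%), close to the 39.6% of annotated genes. Among models at 1 FPKM or more in a library, the median was 5.51 to 6.76 FPKM for added models and 11.7 to 12.8 FPKM for annotated genes.

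The number of added models at 1 FPKM or more was 1269 and 1290 in the September libraries, 1162 and 1137 in November, and 1126 and 1137 in February. Both September libraries were above every other library. The share listed at 0 was 9.03% and 9.14% in September, 11.1% in both November libraries, and 14.9% and 14.3% in February. For annotated genes the share at 0 was 38.3% to 39.6% in all 6 libraries. The depth of the September libraries, 14508997 and 17359723 reads, was the lowest and the second highest of the 6. For single values such as these, an exact two-sided permutation test of 2 libraries against 2 can give no p below 1 in 3, and no test was made.

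The added models took 3.19% and 3.15% of summed FPKM in September, 2.75% and 3.02% in November, and 2.77% and 3.03% in February. The months overlap for November and February. As reads recovered from FPKM and listed length, their share was 3.39% and 3.3%, 3.36% and 3.47%, and 3.09% and 3.42%, with no month apart. For 625 of the models, however, FPKM multiplied by listed length is not a whole number of reads. The 1224 others took 1.4% and 1.48% of recovered reads in September, 1.19% and 1.29% in November, and 1.27% and 1.38% in February. Both September libraries were highest there, by a narrow margin. The 10 highest models made up 23.3% to 32.9% of the summed FPKM of all 1849.

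The classes of distance differed in how detection ran over the months, in no order of distance. Of the 490 models over 100000 bases away, 71% and 71.6% reached 1 FPKM in September, 60.4% and 58% in November, and 56.3% and 58.8% in February. Of the 293 models 1000 to 10000 bases away, 55.3% and 58.4% did so in September, 58.7% and 59% in November, and 60.8% and 58% in February. Of the 132 models within 1000 bases, 66.7% and 69.7% did so in September, 60.6% and 58.3% in November, and 62.9% and 62.1% in February. September thus stands above the other months in the nearest class and beyond 10000 bases, and the months overlap at 1000 to 10000 bases. Models on sequences with no annotated gene had the highest shares, 70.7% to 77.5%, and there September and November overlap. No test was made over models, which are not replicates of a month.

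**Figure D2:**
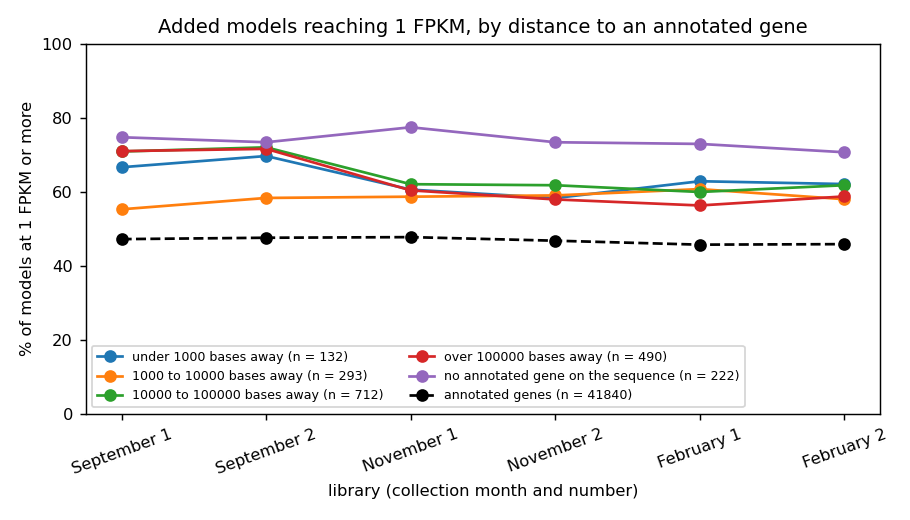
Percentage of models at 1 FPKM or more (y axis) in each of the 6 libraries (x axis), for added models in 5 classes of distance to an annotated gene and for annotated genes (dashed), with n in the legend. Lines join the points of a class. The class over 100000 bases away drops from 71% and 71.6% in September to 56.3% and 58.8% in February, and the class 1000 to 10000 bases away stays between 55.3% and 60.8%.

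The most abundant added models differed in how they ran over the months. Novel00557 and Novel00865 are among the models, described below, whose FPKM may rest on another length than the listed one. Their levels and rank carry that doubt. The highest, Novel00557 (569 bases, minus strand of scaffold 1821, 541717 to 574928), stood at 2606 and 2190 FPKM in September, 1193 and 1250 in November, and 277 and 404 in February. It fell at each step, by −0.97 to November (SE 0.26, limma adjusted p = 0.035) and −1.87 to February (SE 0.26, limma adjusted p = 0.0036), and the months do not overlap. Novel00865 (1650 bases, minus strand of scaffold 27669, 82702 to 160975) stood at 778 and 627 FPKM in September, 820 and 1157 in November, and 2046 and 2275 in February. It rose from November to February by 1.15 (SE 0.27, limma adjusted p = 0.017), and its earlier step of 0.48 did not pass the threshold (limma adjusted p = 0.22).

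The next pair had libraries of 1 month far apart. A 1525-base model on the plus strand of scaffold 15225 (283808 to 417582) held 1951 and 319 FPKM in September, 1586 and 1292 in November, and 153 and 472 in February. Its FPKM, too, may rest on another length than the listed one. A 221-base model on a C-named sequence held 2190 and 308 FPKM in September, 799 and 609 in November, and 137 and 1006 in February. Neither passed the threshold in any comparison, with limma adjusted p from 0.066 to 0.89. The fifth, on the minus strand of scaffold 6370 (40870 to 92601, listed length 481), stood at 403 to 656 FPKM in all 6 libraries. It was also the steadiest of the tested models with a mean of at least 5 FPKM, and its month means differed by at most 0.02 on the log2 scale.

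Of the 1849 added models, 1481 reached 1 FPKM in at least 2 libraries and were tested among 22947 genes. A model can pass this filter through the month where it is high, so shares of the tested models do not describe all 1849. Calls rest on a limma model of log2(FPKM + 1) over the 6 libraries, with adjusted p under 0.05 by the Benjamini-Hochberg method over all genes tested. Of the 1481, 1097 (74.1%) were called in at least 1 of the 3 comparisons, against 71% of all genes tested.

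Between September and November 533 added models were called, 196 higher and 337 lower. Of all genes tested 30.5% were called, 14.6% higher and 15.9% lower, and of the added models 36%, 13.2% higher and 22.8% lower. The share that rose was near the background and the share that fell was above it, with no test over models. The median log2 fold change was −0.14 for added models and −0.06 for all genes tested. Of the calls, 68 were falls of at least 4-fold and 44 rises of that size, against 577 and 659 among all 22947 genes tested. The split did not follow distance in order. It was 11 higher and 23 lower within 1000 bases of an annotated gene, 30 and 28 at 1000 to 10000 bases, 66 and 143 at 10000 to 100000 bases, and 55 and 102 beyond. Among the 770 tested models with a mean below 5 FPKM, 25.2% were lower, against 16% of all such genes, and among the 711 others 20.1% against 15.9%. On the 894 tested models with whole recovered reads, limma called 122 higher and 207 lower, DESeq2 141 and 164, and edgeR 133 and 160. DESeq2 thus called 34.1% of them, against 31.6% of all genes in that fit, and edgeR 32.8%, against 27.7%. The split of all genes by direction in the DESeq2 and edgeR fits is not given here. Without September 1 the count was 232 (15.7%, against 9.81% of all genes tested in that fit), and without September 2 it was 199 (13.4%, against 8.83%).

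The largest rise into November was that of Novel00888 (654 bases, plus strand of scaffold 28683, 268954 to 269755), on a sequence with no annotated gene. Its libraries held 0.105 and 0.264 FPKM in September, 60.4 and 229 in November, and 255 and 271 in February. The low values are all from September. The log2 fold change was 6.65 (SE 0.55, limma adjusted p = 0.0013). Novel00043, on a C-named sequence, rose from 5.29 and 3.29 FPKM to 228 and 376, by 5.82 (SE 0.43, limma adjusted p = 0.0011), and stood at 111 and 247 in February.

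The third rise was that of a 395-base model on the minus strand of scaffold 2635 (1106492 to 1176584), which went from 2.2 and 2.45 FPKM to 124 and 226. It lies 451 bases past the end of Gb_17341, on the opposite strand. That annotated gene stood at 13.3 and 10.7 FPKM in September and 16.2 and 22.8 in November, a log2 fold change of 0.64 that did not pass the threshold (SE 0.22, limma adjusted p = 0.073), against 5.66 for the added model (SE 0.48, limma adjusted p = 0.0015).

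The remaining 3 of the 6 largest rises had September libraries that stood apart. A 439-base model on a C-named sequence held 58.4 and 4.46 FPKM in September and 842 and 699 in November. A 1021-base model on the plus strand of scaffold 9555 (34703 to 47718) held 72.8 and 2.77 FPKM in September, 567 and 462 in November, and 25.2 and 54.5 in February. Its rise of 4.94 (SE 1.23, limma adjusted p = 0.027) was lost without either November library (adjusted p = 0.055 and 0.053) and without either February library (adjusted p = 0.061 for both).

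A 1099-base model on the plus strand of scaffold 1243 (146829 to 148268) held 18.5 and 0.262 FPKM in September, 191 and 140 in November, and 38.4 and 63.9 in February. It lies 515 bases past the end of Gb_04666 on the same strand. That gene held 6.84 and 0.142 FPKM in September, 198 and 136 in November, and 38.9 and 66.3 in February. The added model rose by 5.05 (SE 1.12, limma adjusted p = 0.019) and its neighbour by 5.79 (SE 0.82, limma adjusted p = 0.0046), with September 1 above September 2 in both. The call of the added model was lost with edgeR (edgeR adjusted p = 0.058). It was narrowly kept with DESeq2 (DESeq2 adjusted p = 0.048) and with only the 2 months compared (limma adjusted p = 0.049). Whether the added model and Gb_04666 are parts of 1 transcript was not tested.

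The largest fall into November was that of Novel01102 on scaffold 4 (minus strand, 329169 to 331181, listed length 1843), the largest of any gene tested. It dropped from 366 and 941 FPKM to 0.397 and 0.0552, and was back at 401 and 924 in February. Its nearest annotated gene, Gb_23889, lies 19756 bases away on the opposite strand. Novel01532 (498 bases, minus strand of scaffold 6766, 169035 to 170128) ran the same way at a lower level. Its libraries held 67.7 and 217 FPKM in September, 2.45 in both November libraries, and 62.9 and 38.7 in February. It fell by −5.15 (SE 0.52, limma adjusted p = 0.0019) and rose again by 3.87 (SE 0.52, limma adjusted p = 0.0031).

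The next 4 falls did not turn back. These were models of 636 to 4224 bases, at 24.8 to 65.6 FPKM in the September libraries and 0.223 to 1.46 in the November libraries, and in February at 0 or, in 1 library, at 0.116. Of these 4, the models on scaffold 1792 (543470 to 546208), scaffold 8063 (198915 to 203138) and scaffold 1 (1283520 to 1285878) are unbroken, with a length equal to their span, and all 3 are on the minus strand. The fourth is a 636-base model on the plus strand of scaffold 3759 (1612388 to 1632020).

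Between November and February 573 added models were called, 256 higher and 317 lower. Of all genes tested 41.2% were called, 18.6% higher and 22.6% lower. The added models gave 38.7%, 17.3% and 21.4%, near this background in both directions. The median log2 fold change was −0.13 for added models and −0.1 for all genes tested. Within 1000 bases of an annotated gene 21 of 100 tested models were higher and 10 lower, and beyond 100000 bases 67 and 86 of 395. Unbroken models split into 50 higher and 46 lower of 222. Without February 1 the count was 233 (15.7%, against 17.4% of all genes tested in that fit).

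The largest rise after Novel01102 was that of Novel00588 (677 bases, plus strand of scaffold 19327, 956801 to 957563). Its libraries held 0.814 and 1.87 FPKM in September, 4.77 and 17.9 in November, and 194 and 253 in February. It rose at both steps, by 2.19 (SE 0.54, limma adjusted p = 0.026) and then 4.41 (SE 0.54, limma adjusted p = 0.0025). A 1017-base model on the plus strand of scaffold 27 (3846888 to 3937119) reached the highest February mean of the 6 leading rises. Its libraries held 15.8 and 19 FPKM in September, 34.5 and 64 in November, and 634 and 999 in February, and rose by 1.39 (SE 0.34, limma adjusted p = 0.025) and then 4.05 (SE 0.34, limma adjusted p = 0.0011).

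The other rises started from lower levels. A 926-base model on the plus strand of scaffold 24170 (188427 to 197081) went from 5.2 and 6.26 FPKM in November to 97.9 and 145 in February. A 589-base model on the plus strand of scaffold 10721 (353616 to 354300) went from 12.1 and 4.84 FPKM to 79.6 and 260. A 1403-base model on the minus strand of scaffold 9628 (223752 to 225354) was lowest in November, at 0.141 and 0.0786 FPKM, between 2.92 and 7.16 in September and 13.2 and 35.3 in February. All 6 leading rises lie at least 19756 bases from an annotated gene.

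The largest fall was that of Novel01390 (280 bases, plus strand of scaffold 57, 286545 to 369955), which overlaps the added model outside the rule, Novel01391, and not the annotated gene inside it. Its libraries held 42.9 and 42.1 FPKM in September and 34.9 and 67.6 in November, and in February at 0 and 2.61, a fall of −4.71 (SE 0.6, limma adjusted p = 0.0027). Novel00768 (1600 bases, plus strand of scaffold 2459, 557723 to 559323) stood at 185 and 225 FPKM in November and 2.06 and 38 in February, and fell by −4.23 (SE 1.03, limma adjusted p = 0.019). Its February libraries lie far apart, both below November.

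Among the next 4 falls, a 1198-base model on a C-named sequence was the most even within months, at 103 and 122 FPKM in November and 6.48 and 4.54 in February (log2 fold change −4.14, SE 0.27, limma adjusted p = 0.00076). A 710-base model on the plus strand of scaffold 2373 (451572 to 452577) stood at 85.8 and 2.96 FPKM in November and 0 and 0.09 in February. Its fall of −4.15 (SE 1.29, limma adjusted p = 0.042) was lost without February 1 (adjusted p = 0.18), February 2 (adjusted p = 0.14) or either September library (adjusted p = 0.08). It lies 952 bases past the end of Gb_15446 on the same strand, which is listed at 0 in all 6 libraries. A 1994-base model on the plus strand of scaffold 6106 (526886 to 530773) fell from 61.9 and 77.1 FPKM to 2.34 and 8.08. The model on scaffold 9555 that peaked in November fell by −3.75 (SE 1.23, limma adjusted p = 0.05, under the threshold before rounding), and this call was lost without any single library of the 2 months (adjusted p = 0.083 to 0.24).

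**Figure D3:**
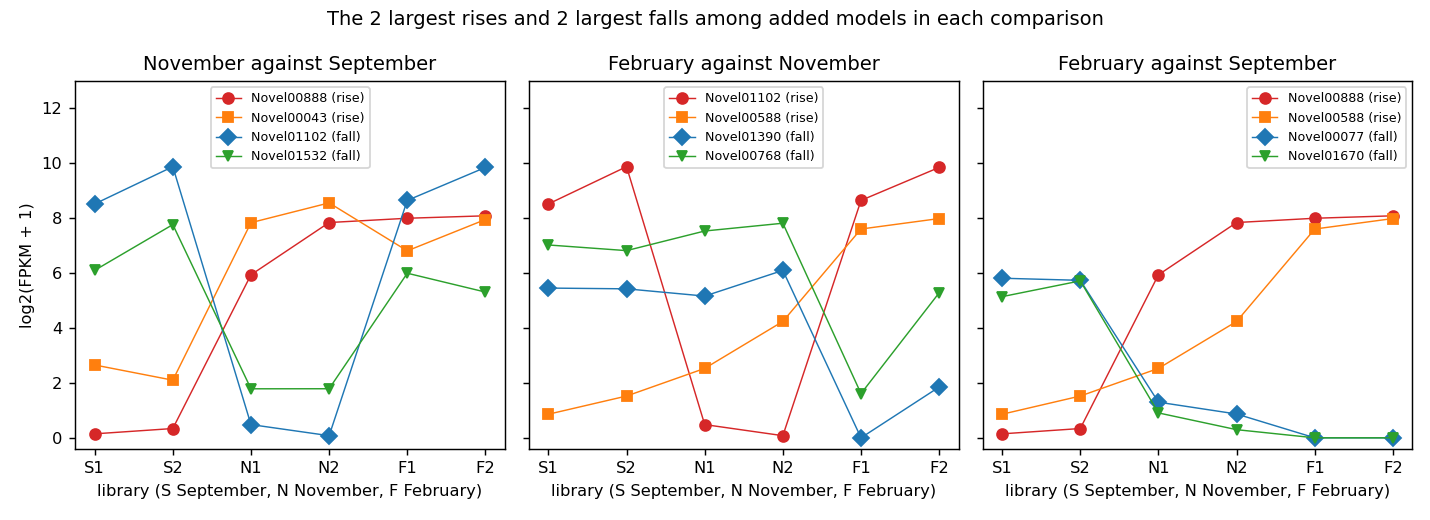
Level of the 2 added models with the largest rise and the 2 with the largest fall in each comparison, as log2(FPKM + 1) on the y axis, in the 6 libraries on the x axis. Points are single libraries, lines join the points of a model. Novel01102 drops to near 0 in November only, Novel00888 is near 0 in September only, and Novel00077 and Novel01670 are at 0 in both February libraries.

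Over the whole interval, September to February, 928 added models were called, 349 higher and 579 lower. Of all genes tested 61% were called, 27.1% higher and 33.9% lower, and of the added models 62.7%, 23.6% higher and 39.1% lower. The median log2 fold change was −0.38 for added models and −0.13 for all genes tested. Rescaling the libraries with RLE factors moved the median of all genes by 0.126 and TMM factors by 0.112. Relative to the median of all genes, the median of added models was −0.24 with FPKM as deposited, −0.26 with TMM factors and −0.26 with RLE factors. With RLE factors 383 were higher and 537 lower, and with TMM factors 380 and 540. The RLE shares were 25.9% and 36.3%, against 30.3% and 30.4% of all genes tested. With TMM factors they were 25.7% and 36.5%, against 29.9% and 30.7%.

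By distance, models 1000 to 10000 bases from an annotated gene gave 65 higher and 66 lower of 218 tested, and those within 1000 bases 27 and 30 of 100. At 10000 to 100000 bases it was 111 and 237 of 570, and beyond 100000 bases 94 and 172 of 395. The median log2 fold changes were 0.13 at 1000 to 10000 bases and −0.16, −0.49 and −0.54 in the nearest and the 2 farther classes. Models on sequences with no annotated gene gave 52 higher and 74 lower of 198. Falls led in models of every span, at 244 higher and 394 lower under 10000 bases, 70 and 133 at 10000 to 100000 bases, and 35 and 52 at 100000 bases or more. Among tested models that overlap another added model on the opposite strand there were 20 of each in 67.

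**Figure D4:**
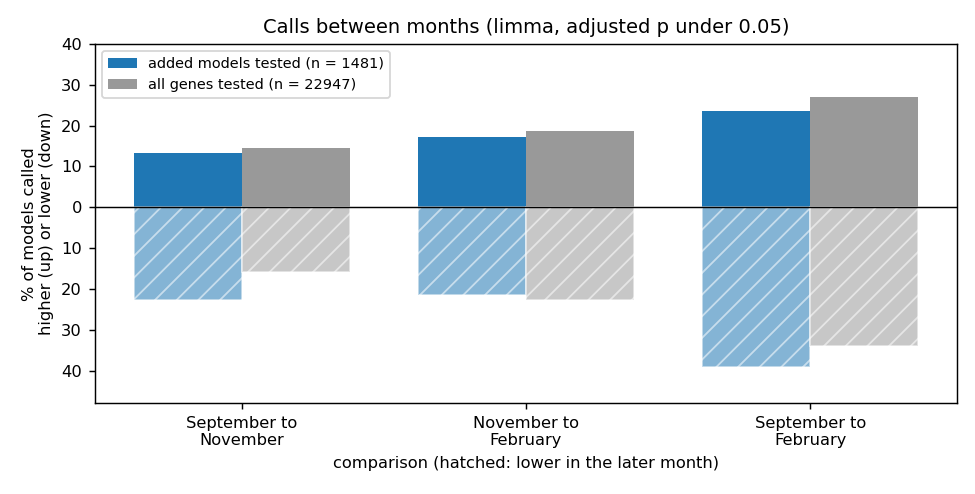
Percentage of models called higher (bars above 0) and lower (hatched bars below 0) in the later month, for the 1481 added models tested (blue) and all 22947 genes tested (grey), in the 3 comparisons on the x axis. Lower calls are 22.8% against 15.9% from September to November and 39.1% against 33.9% from September to February, and the bars are near each other from November to February.

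Novel00888 had the largest rise over the whole interval too, by 7.8 (SE 0.55, limma adjusted p = 0.00017), and Novel00588 the next, by 6.61 (SE 0.54, limma adjusted p = 0.00025). Models on scaffold 3740 (949458 to 950357, minus strand, 740 bases) and scaffold 4475 (358880 to 360130, plus strand, 1108 bases) completed the 6 largest rises with those on scaffolds 2635 and 24170. The first held 2.12 and 0.967 FPKM in September and 172 and 135 in February, and the second 0.292 and 0.183 and then 61.7 and 45.1.

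The largest falls were those of Novel00077, the unbroken 2359-base model on scaffold 1, and Novel01670, the unbroken 4224-base model on scaffold 8063. Novel00077 held 55.3 and 52.4 FPKM in September and 1.46 and 0.825 in November. Novel01670 held 34.4 and 51.6 FPKM in September and 0.875 and 0.228 in November. Both are listed at 0 in both February libraries, where a count of 0 allows up to 3 reads, for counting error only. That is 0.181 to 0.186 FPKM on a model of 1000 bases, and less at the listed lengths of these 2. Both are also among the models, described below, whose FPKM may rest on another length than the listed one. Their falls on the log2(FPKM + 1) scale were −5.78 (SE 0.23, limma adjusted p = 9.2e-05) and −5.43 (SE 0.3, limma adjusted p = 0.00013), and against values of 0 these sizes depend on the pseudocount. A 2418-base model on the plus strand of scaffold 6638 (129585 to 132164) fell at both steps, from 47.6 and 77.2 FPKM to 8.92 and 6.08 and then 0.206 and 1.27.

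By month means, 682 of the 1481 tested added models (46%) were highest in September, 335 (22.6%) in November and 464 (31.3%) in February, against 41.7%, 22.7% and 35.6% of all genes tested. They were lowest in February in 697 (47.1%, against 44.4%), in September in 470 (31.7%, against 34.6%) and in November in 314 (21.2%, against 21.1%). The comparisons share libraries, so counts of models by their calls over successive steps are not given here.

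Values of 0 in both libraries of a month were rare among models with higher levels in another month. Of all 1849, 12 added models were listed at 0 in both September libraries and had a mean of at least 5 FPKM in another month, 2 were so in November and 11 in February. Among the 41840 annotated genes these numbers were 62, 19 and 50, which is a smaller share than among the added models in each month. For November this rests on 2 added models. The sets also differ in detection, since 87.5% of added models and 53.6% of annotated genes reached 1 FPKM in any library. Among the 11 in February is a model 1151518 bases from the nearest annotated gene (minus strand, scaffold 2107, 2804196 to 2805254, listed length 836). It held 24.5 and 28.3 FPKM in September, 0 and 0.487 in November, and 0 in both February libraries, and fell by −4.48 to November (SE 0.26, limma adjusted p = 0.00073). A model 1228691 bases away on the plus strand of scaffold 8262 (201422 to 330400) stood at 0.144 to 0.711 FPKM and was not tested. The most distant model, on scaffold 1496, held 2.98 and 4.58 FPKM in September, 7.22 and 3.77 in November, and 0.458 and 0.631 in February. It fell by −2.02 after November (SE 0.33, limma adjusted p = 0.0051).

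Added models close to an annotated gene ran more alike with it over the 6 libraries than distant ones did. The Pearson correlation of log2(FPKM + 1) over the 6 libraries, where both members of a pair were tested, had a median of 0.72 for 85 pairs within 1000 bases (quartiles 0.39 and 0.93). It was 0.69 for 138 pairs at 1000 to 10000 bases, 0.44 for 320 pairs at 10000 to 100000 bases and 0.21 for 244 pairs beyond. Annotated genes and their own nearest annotated neighbours gave 0.8, 0.64, 0.45 and 0.2 in the same classes. The 6 points of each correlation share libraries and months, and no test was made.

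By strand, medians differed within a class, and no test of that difference was made. At 1000 to 10000 bases the median was 0.72 for 95 pairs on the same strand and 0.36 for 43 on opposite strands. Within 1000 bases it was 0.75 for 55 pairs and 0.64 for 30. For annotated pairs within 1000 bases the opposite-strand median, 0.81, was not below the same-strand median of 0.79, and at 10000 to 100000 bases they were 0.16 and 0.56, against 0.25 and 0.47 for added models. Of pairs within 1000 bases with both models called between September and February, 32 of 34 went in the same direction, and beyond 100000 bases 69 of 115 did. For annotated genes and their nearest annotated neighbours it was 183 of 188 and 1063 of 1824, so this is not particular to added models.

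**Figure D5:**
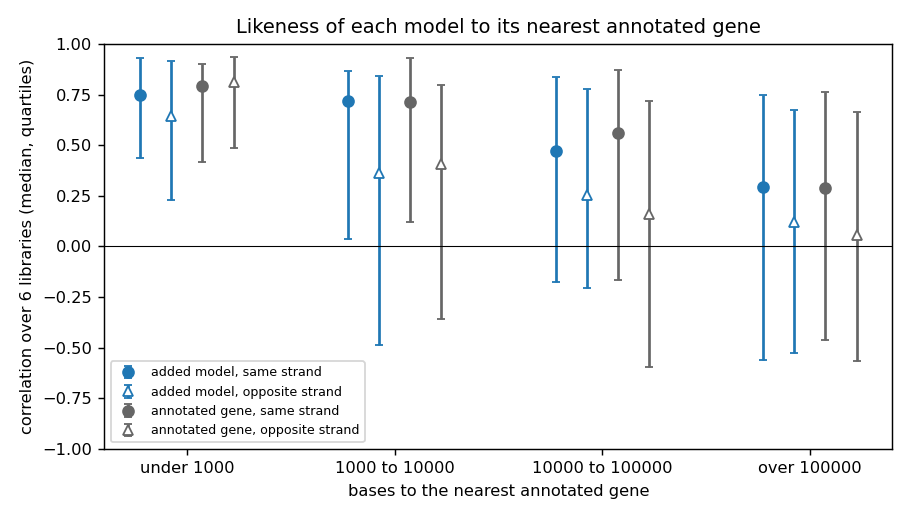
Correlation over the 6 libraries between each model and its nearest annotated gene (y axis; points are medians over pairs, bars reach the quartiles) by distance class in bases (x axis), for added models (blue) and annotated genes (grey) on the same strand (filled circles) or the opposite strand (open triangles). Medians decline from 0.75 and 0.64 for added models within 1000 bases to 0.29 and 0.12 beyond 100000 bases, and the quartiles of the classes overlap.

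Single close pairs did not all follow this. Novel00811, separated by 1 base from Gb_17024, had a correlation of 0.25 with it. It stood at 2.05 to 5.54 FPKM in the 6 libraries and its neighbour at 1.42 to 5.93. The pair 2 bases apart on scaffold 4660 had a correlation of −0.48, and both were low, at 0.454 to 3.86 and 0.812 to 1.69 FPKM. The pair 7 bases apart on scaffold 13831 had a correlation of 0.66, with the added model at 6.77 to 14.1 FPKM and Gb_06520 at 4.25 to 11 FPKM. Gb_06520 fell between September and February by −1.11 (SE 0.23, limma adjusted p = 0.0062), and the added model differed by −0.51 (SE 0.23, limma adjusted p = 0.089). One of the steadiest added models, of 498 bases on the minus strand of scaffold 15054 (95110 to 187843), lies 110 bases before the start of Gb_07863. It stood at 6.82 to 8.3 FPKM in all libraries, and its neighbour at 9.43 to 15.3 FPKM. Another of the steadiest, a 284-base model (scaffold 6698, 49343 to 49727, minus strand), held 20.8 to 27.2 FPKM and lies 2000 bases from Gb_34047.

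In 625 of the 1849 added models (33.8%), and in no annotated gene, FPKM multiplied by the listed length was not a whole number of reads within 0.05 of a read. The length behind these FPKM values may therefore differ from the listed one. Ratios of FPKM between libraries of 1 model do not depend on it. Levels do, and with them the 1 FPKM filter and fold changes on the log2(FPKM + 1) scale. These models were longer, with a median listed length of 1404 bases against 918, and had a median of 3.22 to 4.41 FPKM against 1.29 to 1.83. A value of 0 always counts as whole, so the 71 models at 0 in all libraries fall among the others by rule. The medians of level are therefore not independent of the rule, and those of the 625 carry the doubt about length. Between September and February 64.4% of those tested were called, against 61.5% of the others.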

How the data were processed

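The authors deposited 1 table of FPKM for 6 mRNA libraries and 1 of raw read counts per miRNA name for 9 small-RNA libraries, per the file headers. The counts were not analysed here. Tools listed by the submitters' processing notes, with no role, are HTSeq 0.6.1, TopHat2 2.0.12, Bowtie and CASAVA 1.8. No source used here gives the genome build, and positions are those of the deposited table. Libraries were grouped by the month in their labels. Distance is the number of bases between intervals. Reads were recovered from FPKM and length. Genes reaching 1 FPKM in 2 or more libraries entered limma 3.58.1 (R 4.3.3) as log2(FPKM + 1), trend on, leaving 3 residual degrees of freedom; the script was tested on simulated data. The scale understates changes of low genes. DESeq2 1.42.0 and edgeR 4.0.16 on recovered reads were alternatives.

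In each comparison, called models without overlap between months, and averaging 5 FPKM or more in whichever month was higher, were put in order of fold change; 6 a direction are described, the first 2 by identifier, since the table pairs no identifier with a name. The 5 most abundant and the 3 longest, widest, farthest, nearest and steadiest were also described. Overlapping and excluded models were chosen after their values were seen, as was leaving out overlapping models. Members and lists were chosen with earlier results of these data known.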

Additional observations from a re-analysis of the deposited data

How the results depend on the processing

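From September to November the 533 called models became 305 (DESeq2) and 293 (edgeR) when recovered reads were tested. Those fits cover only the 894 tested models with whole reads. With at least 5 FPKM in 2 libraries, which leaves 834 tested, the count was 323. That is 38.7%, against 33.6% of all genes in that fit. With a library left out the count was 199 to 553. From November to February the 573 became 318 and 317 with DESeq2 and edgeR, and 233 to 591 with a library left out. From September to February the 928 became 499 with DESeq2, 508 with edgeR and 562 with the stricter filter, and 684 to 1014 with a library left out. There DESeq2, edgeR and the stricter filter called 55.8%, 56.8% and 67.4% of the models they tested, against 59.4%, 59.3% and 64.9% of all genes. With DESeq2 and edgeR the share thus fell below that of all genes. The ranges with a library left out stand without shares of all genes, so they say nothing particular to added models. From November to February DESeq2 and edgeR called 35.6% and 35.5% of the models they tested, against 42.8% and 40.9% of all genes. Lower calls outnumbered higher ones in all of these fits and in those with another pseudocount, scaling or member rule, by unequal margins. From September to November 36.8% of the calls were higher in the main setting, 46.2% with DESeq2, 45.4% with edgeR and 44.6% with the stricter filter. Keeping only models at least 10000 bases away moved the median distance to 76328 bases. The labels do not say whether libraries of the same number in the titles belong together. The difference between numbers 1 and 2 correlated across genes by −0.18 to 0.1 between months. This shows no strong shared deviation and does not settle whether they were paired. In the first 2 comparisons the replicate block gave 466 and 525 calls. This was 31.5% and 35.4% of the models tested, against 25.1% and 35.8% of all genes. Leaving out models that overlap another added model, an alternative chosen after seeing the data, gave 511, 541 and 882. These are 36.4%, 38.6% and 62.9% of the models kept and tested, against 30.5%, 41.2% and 61% of all genes tested. Of the described models, none changed direction. Leaving out a library ended a call of theirs 12 times in 216, and the other settings 11 times in 286.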
